A study of Mus musculus with 12 samples.

Results

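The 46 genes described here are mouse type I interferon-stimulated genes, taken by gene name from a list that covers the nucleic acid sensors, transcription factors, ISG15 enzymes, OAS, IFIT and Mx families, membrane restriction factors and other antiviral effectors. All 46 names were found, each on a single row, among 31340 gene rows that carry 31272 names. The list was chosen by name and not by level. RNA-seq was run on 12 libraries from wild-type (WT) C57BL/6 mice, all sorted from bone marrow as hematopoietic stem cells (HSCs) by a lineage-negative, Sca-1-positive, c-Kit-positive, Flt3-negative and CD34-negative gate. The 4 groups of 3 libraries are Ctrl, IR (ionizing radiation given to the whole body), Ab_IR and L_IR, the last 2 being radiation with a further treatment, called an agent here, that the labels give as Ab or L without spelling it out. The protocol text gives collection at 3 days after IR for every library, the Ctrl libraries included, and the age of the mice is not given in the sources used here. Nothing in the labels says that the 3 libraries of a group came from separate animals, so the p-values measure the spread between these libraries, which may be technical.

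Type I interferons bind the receptor made of Ifnar1 and Ifnar2, whose kinases Jak1 and Tyk2 phosphorylate signal transducers such as Stat2. A complex of Stat2 with Irf9 then enters the nucleus and binds the interferon-stimulated response element in the promoters of many genes whose products sense, block or degrade viral nucleic acid. Bone marrow stem and progenitor cells express many of these genes at a basal level without infection, and interferon signals reach them during inflammation and after injury.

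Levels are given as FPKM (fragments scaled to transcript length and library size) as the authors deposited them, without counts, so the depth behind each value is unknown. A log2 fold change below is the difference of group means of log2(FPKM + 1), which understates the change of genes at low level, and a difference printed as log2 with a value is on that scale. A fold is the ratio of group mean FPKM. A gene passed the test where the Benjamini-Hochberg adjusted p from limma, taken over all rows tested in that comparison, was under 0.05. A background is the share of all rows tested in the fit of the 2 groups compared. None is given for counts under other fits, filters, scalings or sets of libraries. No member was listed at 0 in any library. The mean over the 12 libraries was below 5 FPKM for 16 members and above 100 FPKM for 3 (Ly6e, Ifitm2 and Ifitm3).

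Some libraries stood apart before any comparison. Ctrl 1 listed 44.1% of rows at 0 against 24.7 to 27.3% in the other 11 libraries. The transcript Nppa of atrial heart muscle was at 51.16 to 63.92 FPKM in Ctrl 2, Ctrl 3 and the 3 IR libraries and at 0 to 0.26 FPKM in the other 7, so that this split coincides with the difference between IR and the Ab_IR and L_IR groups except through Ctrl 1. Immunoglobulin genes took 9.0 to 11.1% of the summed FPKM in Ctrl, 17.2 to 18.0% in IR, 13.5 to 14.3% in Ab_IR and 21.9 to 22.6% in L_IR. Of the long-term HSC genes, Hoxb5 did not exceed 0.07 FPKM, Fgd5 0.22, Mecom 0.25 and Slamf1 0.88 in any library. Hlf was at 1.14 to 2.4 FPKM and Procr at 0.3 to 1.26. Of the genes that the gate selects for, Kit was at 6.7 to 25.45 FPKM and Ly6a (Sca-1) at 25.92 to 61.47. Cd34 and Flt3, which the gate selects against, stood at 18.99, 20.4 and 20.65 and 12.07, 9.13 and 10.39 FPKM in Ctrl, at 3.78, 3.91 and 3.66 and 1.07, 1.22 and 0.96 in IR, and at 15.6 to 18.26 and 5.6 to 7.57 in Ab_IR and L_IR. The markers therefore do not match the labelled cell type in full, and values are described below as those of the sorted cells. In such bulk libraries, fewer cells of a type and less RNA per cell cannot be told apart.

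Promoters were read from RefSeq on GRCm38.p6 over 250 bases before and 50 after each transcription start, for the 33 members that matched an entry. The core of the interferon-stimulated response element, written as GAAA, any 2 bases and GAAA and searched on both strands (TTTC, any 2 bases and TTTC on the other), was present in at least 1 promoter of 16 of these 33 members (48.5%) against 1079 of 27025 genes (3.99%) and 1131 of 32851 promoters (3.44%). The 16 were Ifih1, Ddx58, Stat2, Isg15, Oas1a, Oas3, Eif2ak2, Rsad2, Ifit1, Ifit3, Ifit3b, Bst2, Ifitm2, Ifitm3, Trim30a and Ifi203, and no entry was matched for 13 members. A shorter core (GAA, any 2 bases and GAA), spaced differently and not contained in the longer, was present in 17 of the 33 members (51.5%) against 22.7% of genes. A match describes letters in a window and is not a measured site. The windows below show the element, in capitals, in the members on which the results turn. Ifit1 and Ifit3 belong to a family whose summed level was lower in Ctrl and IR than in Ab_IR and L_IR, though none of its genes passed in Ab_IR against Ctrl. Rsad2 was also lower in every Ctrl and IR library than in those of Ab_IR and L_IR. Isg15, Oas1a and Bst2 were lowest in IR, and the 3 Ifitm genes are neighbours on chromosome 7 of which 2 moved against most of the list. Each window is read 5′ to 3′ on the strand of its gene, and overlapping matches are joined in 1 run of capitals.
Ifit1: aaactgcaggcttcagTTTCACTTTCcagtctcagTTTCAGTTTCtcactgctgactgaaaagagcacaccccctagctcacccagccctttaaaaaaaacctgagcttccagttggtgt
Ifit3: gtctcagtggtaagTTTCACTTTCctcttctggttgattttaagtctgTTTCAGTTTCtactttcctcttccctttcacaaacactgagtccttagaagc
Rsad2: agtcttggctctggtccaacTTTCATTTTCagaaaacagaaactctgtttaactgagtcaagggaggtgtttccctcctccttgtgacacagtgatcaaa
Isg15: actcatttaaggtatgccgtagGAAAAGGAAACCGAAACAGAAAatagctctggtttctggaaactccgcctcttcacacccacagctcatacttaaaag
Oas1a: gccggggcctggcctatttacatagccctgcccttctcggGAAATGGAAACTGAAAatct
Bst2: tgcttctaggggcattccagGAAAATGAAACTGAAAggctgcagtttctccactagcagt
Ifitm2: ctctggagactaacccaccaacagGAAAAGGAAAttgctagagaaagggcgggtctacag
Ifitm3: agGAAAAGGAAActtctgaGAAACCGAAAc
Ifitm1: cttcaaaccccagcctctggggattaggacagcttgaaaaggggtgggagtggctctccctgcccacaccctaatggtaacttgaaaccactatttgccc
The windows lie at chr19:34640769-34640888, plus strand for Ifit1 and chr19:34583359-34583458, plus strand for Ifit3, each with 2 matches, and at chr12:26456493-26456592, minus strand for Rsad2 with 1 match. Those of Isg15 with 3 overlapping matches, Oas1a with 2 and Bst2 with 2 lie at chr4:156200819-156200918, minus strand, chr5:120907526-120907585, minus strand, and chr8:71537563-71537622, minus strand. All 6 end at or before the base that precedes the transcription start. The Ifitm2 window, with 1 match, lies at chr7:140955972-140956031, minus strand, upstream of its start. The Ifitm3 window, with 2 matches, lies at chr7:141010715-141010744, minus strand, and covers the 30 transcribed bases after its start. The Ifitm1 window at chr7:140967976-140968075, plus strand, directly before the RefSeq start, holds no match, and that start lies inside the gene as GENCODE draws it.

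IR against Ctrl shows where the list stood in the sorted cells after radiation. Most members were lower in IR. Of the 43 members tested, 29 fell and 2 rose, against 25.5% of all 12072 rows tested called lower and 17.5% called higher. The members that fell were led by Rtp4, Xaf1, Lgals3bp, Ifi27, Ifi27l2a, Isg15, Irf7, Cmpk2 and Isg20, and the 2 that rose were Ifitm1 and Ifitm3. More than 2-fold on the log2(FPKM + 1) scale, 11 fell and 2 rose, against 4.57% and 3.03% of rows. The median over all 46 members was -0.44 against -0.0461 over all rows tested. Ifit3b, Mx2 and Ifi44 were below the filter of 1 FPKM in 3 libraries, and Oasl2 passed it through Ctrl alone. Apart from Oasl2, 28 of 42 fell and 2 rose. Without IR 1 the count was 21 (19 lower, 2 higher), and among the libraries that carry Nppa, that is without Ctrl 1, it was 32 (29 lower, 3 higher).

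Set against IR, both agents came with higher levels of most members. Ab_IR had 34 of 45 tested members higher and 3 lower than IR (background 39.4% of 12067 rows higher and 29.4% lower), 17 of them more than 2-fold higher (background 5.11%) and 1 more than 2-fold lower (background 2.46%). Here the median of the members was 0.74 against 0.0607 over all rows. L_IR had 37 of 45 higher and 5 lower than IR (background 40.8% of 12163 rows higher and 26% lower), 20 more than 2-fold higher (background 4.09%) and 2 more than 2-fold lower (background 2.13%). In that comparison the median was 0.70 against 0.073. Ifi44 was below the filter in both, and Oasl2, Ifit3b and Mx2 passed it only through the group with the agent. Apart from these, 31 of 42 were higher (16 more than 2-fold) and 3 lower in Ab_IR, and 34 of 42 higher (17 more than 2-fold) and 5 lower in L_IR. These comparisons share the 3 IR libraries with each other and with IR against Ctrl, so that a low IR level enters all of them. With the split by Nppa as a term, fitted over the 12 libraries, 35 members passed in Ab_IR against IR (31 higher, 4 lower) and 34 in L_IR against IR (31 higher, 3 lower), a fit in which Ctrl 1 alone separates the split from the group. That fit ended 7 of the 37 calls of Ab_IR against IR (Ifih1, Stat2, Trim25, Oas3, Oasl2, Samhd1 and Ifitm3) and 9 of the 42 of L_IR against IR (Ifih1, Zbp1, Dtx3l, Oas3, Oasl2, Eif2ak2, Samhd1, Ifitm2 and Ly6e).

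**Figure D1:**
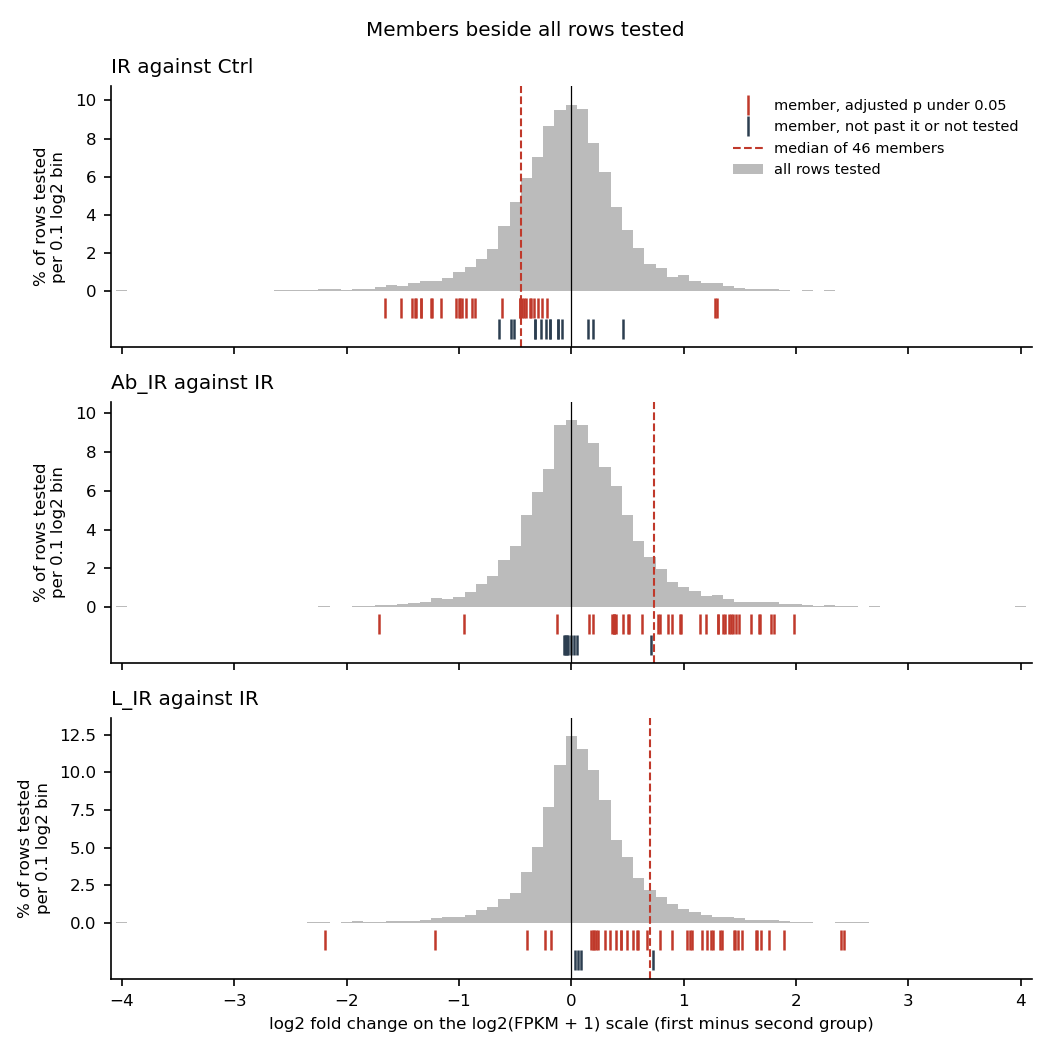
Distribution of the log2 fold change, on the log2(FPKM + 1) scale, for IR against Ctrl, Ab_IR against IR and L_IR against IR. Bars give the percentage of all rows tested per 0.1 of log2 with the ends gathered at -4 and 4, ticks mark the 46 members (red where the adjusted p was under 0.05, dark otherwise or where not tested), and the dashed line is the members' median, at -0.44, 0.74 and 0.70 in turn.

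By order alone, IR lay below Ctrl without overlap for 30 of the 43 members tested and above it for 5 (background 32.8% and 25.2% of rows tested). Oasl2, which passed the filter through Ctrl alone, is among the 30. All 3 IR libraries lay below the other 9 for 29 of the 46 members (24.8% of 12699 rows) and above the other 9 for 2 members, Ifitm1 and Ifitm3 (16.1% of rows). The 29 include Oasl2, Mx2 and Ifi44, which reached at most 0.87, 0.4 and 0.32 FPKM in IR. These passed the filter only through the other groups, where they are high. Summed over the list, the members gave 915.1, 1138.4 and 1106.4 FPKM in Ctrl, 1175.6, 1184.1 and 1212.8 in IR, 1210.7, 1239.9 and 1123.6 in Ab_IR and 1073.8, 1048.6 and 1049 in L_IR. This sum is carried by a few membrane proteins. Leaving out Ifitm1, Ifitm2, Ifitm3 and Ly6e, a choice made after the values were seen, gave 450.3, 481.4 and 457.4 in Ctrl, 248.7, 270.4 and 283.6 in IR, 519.8, 494.1 and 475.7 in Ab_IR and 510.5, 497.4 and 488 in L_IR, with IR below every other library.

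**Figure D2:**
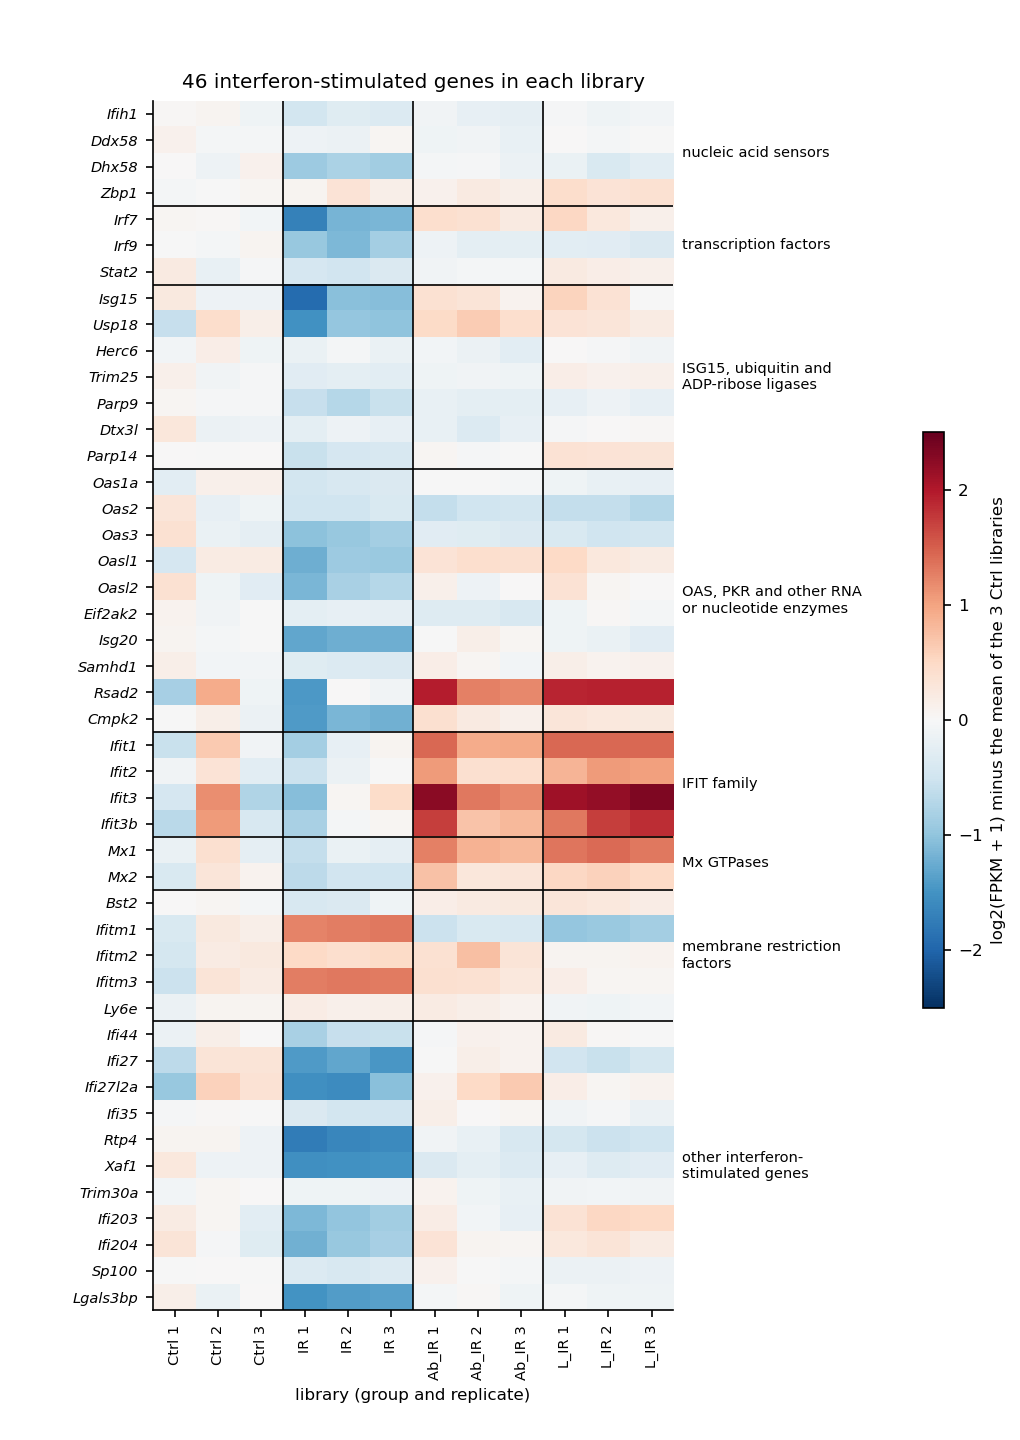
Log2(FPKM + 1) of the 46 members, ordered by role, in the 12 libraries, each shown as the difference from the Ctrl mean of that gene. The IR columns are low for most rows and high for Ifitm1 and Ifitm3, and Ctrl 2 is higher than Ctrl 1 and Ctrl 3 for Ifit1, Ifit3, Rsad2 and Mx1.

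Summed levels of several sets of markers of other cells differed between the same groups, and their part in the results was not tested. For the counts of IR against Ctrl that follow, the background was 25.5% of rows lower and 17.5% higher. Summed macrophage markers (8 genes) were 64.15 to 73.78 FPKM in Ctrl, 41.2 to 47.28 in IR, 69.76 to 76.91 in Ab_IR and 61.34 to 70.13 in L_IR, with 4 lower (Adgre1, C1qb, Vcam1 and Axl) and Cd5l higher in IR than in Ctrl. For plasmacytoid dendritic cells, which make interferon in large amounts, the 8 markers summed to 27.22 to 31 FPKM in Ctrl, 16.18 to 16.96 in IR, 21.63 to 23.79 in Ab_IR and 22.04 to 23.27 in L_IR. Siglech, their defining surface marker, was at 3.77, 2.2 and 2.7 FPKM in Ctrl and 0.3, 0.33 and 0.34 in IR, Klk1 was at 0 in 10 of 12 libraries, and 3 of the 8 (Siglech, Tcf4 and Runx2) fell in IR. Neutrophil and monocyte markers (12 genes) went the other way, at 8606 to 10090 FPKM in Ctrl, 13230 to 13520 in IR, 9503 to 9926 in Ab_IR and 6606 to 6798 in L_IR, with 6 higher and Ly6c2 lower in IR. Erythroid markers (8 of 8 lower in IR) were at 2924 to 3573, 520 to 527, 3126 to 3271 and 1545 to 1601 FPKM in the same order of groups. Megakaryocyte markers (6 of 7 lower) were at 54.84 to 70.38, 13.04 to 15, 141.8 to 145 and 87.37 to 93.38, and stromal markers (5 of 6 lower) at 162.6 to 203.4, 10.1 to 10.92, 51.04 to 57.02 and 49.57 to 51.66. The B and plasma cell list (6 of 10 higher and 1 lower) gave 10180 to 13400, 17750 to 19000, 18070 to 18710 and 25860 to 26740. T and NK cell markers (3 of 8 lower) gave 164.6 to 270.6, 216.7 to 223.4, 280 to 288.8 and 238.3 to 246.9. For the HSC and gate genes (5 of 12 lower, Ly6a higher) the sums were 162.8 to 179, 101 to 110.3, 145.1 to 165.7 and 151.7 to 159.6, and for atrial and heart muscle genes (0 of 6 passed) 0 to 136.7, 111.5 to 142.2, 0.34 to 0.58 and 0.29 to 0.48. Among the plasmacytoid dendritic cell, megakaryocyte, stromal, T and NK cell markers called lower in IR, Siglech, Vwf, Col1a2, Cxcl12, Bglap, Cd3e and Cd4 passed the filter through the Ctrl libraries alone, where they are high. So did 1 of the 5 HSC and gate genes called lower. Apart from these, 2 of 4 plasmacytoid dendritic cell markers tested were lower, 5 of 5 of megakaryocytes and 2 of 2 of stroma. Of T and NK cell markers 1 of 5 was lower, and of HSC and gate genes 4 of 6 (background 25.5% of rows). The T and NK cell count does not exceed that share.

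The transcription factors of the response fell together in IR. All 3 (Irf7, Irf9 and Stat2) were lower in IR than in Ctrl (background 25.5%). They were higher than IR in Ab_IR (background 39.4%) and in L_IR (background 40.8%). Irf7, the factor that is itself induced by interferon and drives further interferon genes, stood at 9.64, 9.43 and 8.78 FPKM in Ctrl, 2.17, 3.58 and 3.65 in IR, 12.69, 12.45 and 11 in Ab_IR and 13.79, 11.33 and 10.23 in L_IR. Every IR library was below every other library, and the Ab_IR and L_IR libraries lay above all 3 Ctrl libraries. The mean was 3.13 ± 0.835 FPKM in IR against 9.28 ± 0.448 in Ctrl (SD, n = 3), 2.96-fold lower (log2 fold change -1.34, SE 0.16, adjusted p 0.00108). Irf7 was higher than IR by log2 1.68 at adjusted p 4.73e-05 in Ab_IR and log2 1.64 at adjusted p 0.000139 in L_IR. Its exons overlap those of Phrf1 on the opposite strand, and the sources used here do not say that counting used strand. Irf9, the DNA-binding subunit that partners Stat2, was at 11.22, 10.87 and 11.81 FPKM in Ctrl, 5.38, 4.67 and 5.79 in IR, 10.28, 9.41 and 9.43 in Ab_IR and 9.19, 9.15 and 8.57 in L_IR. The groups did not overlap and ran from Ctrl through Ab_IR and L_IR down to IR. Irf9 fell in IR (log2 fold change -0.97, SE 0.086, adjusted p 0.000339) and was also lower in L_IR than in Ctrl (log2 fold change -0.30, SE 0.065, adjusted p 0.0375), while Ab_IR against Ctrl gave log2 -0.20 at adjusted p 0.197. The call of L_IR against Ctrl was lost under 12 of 23 alternatives (adjusted p up to 0.2), whichever L_IR library was left out among them. Stat2, its partner, ranged over 4.83 to 8.52 FPKM and fell in IR (log2 -0.42 at adjusted p 0.027), a call lost under 11 of 23 alternatives. Over IR it gave log2 0.36 at adjusted p 0.00033 in Ab_IR and log2 0.59 at adjusted p 3.94e-05 in L_IR, and with the Nppa split as a term the Ab_IR value was 0.024 (adjusted p 0.842).

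ISG15 and its enzymes were lower in IR for 5 of 7 members (background 25.5% of rows). Isg15 encodes a ubiquitin-like modifier that is joined to target proteins, and its levels were 13.64, 10.26 and 10.34 FPKM in Ctrl, 2.26, 5 and 4.87 in IR, 14.95, 14.37 and 12.05 in Ab_IR and 17.13, 14.93 and 11.26 in L_IR. All 3 IR libraries were below the other 9, while Ctrl, Ab_IR and L_IR overlapped. The mean was 4.04 ± 1.55 FPKM in IR and 11.4 ± 1.93 in Ctrl (SD, n = 3), 2.82-fold lower (log2 fold change -1.34, SE 0.25, adjusted p 0.00693). In Ab_IR the difference from IR was log2 1.60 at adjusted p 0.000576 and in L_IR log2 1.65 at adjusted p 0.00112. Usp18, the protease that removes ISG15 and restrains the interferon receptor, is given in full although chosen after the values were seen, at 2.4, 5.83 and 4.57 FPKM in Ctrl, 0.77, 1.59 and 1.53 in IR, 6.02, 6.89 and 5.81 in Ab_IR and 5.39, 5.27 and 4.84 in L_IR. It fell in IR (log2 -1.16 at adjusted p 0.0177), a call lost under 6 of 22 alternatives (adjusted p up to 0.0883), and was higher in Ab_IR by log2 1.67 at adjusted p 4.92e-05 and in L_IR by log2 1.44 at adjusted p 0.000127. Trim25, a ubiquitin ligase that activates the sensor RIG-I, was at 16.04, 13.66 and 14.43 FPKM in Ctrl, 11.93, 12.24 and 12.05 in IR, 13.54, 13.81 and 13.46 in Ab_IR and 16.66, 16 and 16.06 in L_IR. IR was again lowest without overlap, and L_IR was above Ab_IR in every library, but the IR difference was small (log2 fold change -0.26, SE 0.073, adjusted p 0.029) and was lost under 12 alternatives. Dtx3l, a ubiquitin ligase that pairs with Parp9, was at 11.06, 7.94 and 8.15 FPKM in Ctrl, 7.45, 8.16 and 7.65 in IR, 7.71, 6.88 and 7.59 in Ab_IR and 8.76, 9.07 and 9.11 in L_IR. Its IR libraries overlapped both Ctrl and Ab_IR, and IR against Ctrl gave log2 -0.19 at adjusted p 0.277, while L_IR lay above IR (log2 fold change 0.19, SE 0.041, adjusted p 0.00548). That call was lost under quantile normalization and with all 12 libraries in 1 fit, and the value turned to -0.23 with the Nppa split as a term. Herc6, the mouse ligase for ISG15, gave log2 -0.12 at adjusted p 0.357 in IR against Ctrl, with a sign that turned under quantile normalization. Parp9 (log2 -0.62 at adjusted p 0.00104) and Parp14 (log2 -0.45 at adjusted p 0.00377), which handle ADP-ribose, fell in IR. The levels of Herc6, Parp9 and Parp14 lay within 2.35 to 9.24 FPKM.

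Among the 10 RNA and nucleotide enzymes, 9 fell in IR and none rose, a count that is 8 of 9 apart from Oasl2 (background 25.5% lower). Isg20, an exonuclease that degrades single-stranded RNA, was at 24.16, 22.21 and 22.97 FPKM in Ctrl, 8.84, 9.37 and 9.41 in IR, 23.1, 25.71 and 23.86 in Ab_IR and 21.37, 20.6 and 18.8 in L_IR. IR was below all other libraries and L_IR was below Ctrl and Ab_IR. The mean was 9.21 ± 0.318 FPKM in IR against 23.1 ± 0.983 in Ctrl (SD, n = 3), 2.51-fold lower (log2 fold change -1.24, SE 0.062, adjusted p 4.35e-05), and the agents gave log2 1.30 at adjusted p 9.57e-07 for Ab_IR and log2 1.06 at adjusted p 4.01e-06 for L_IR over IR. Cmpk2, a mitochondrial nucleotide kinase, was at 10.95, 12.31 and 9.75 FPKM in Ctrl, 3.5, 4.45 and 4.22 in IR, 14.7, 12.98 and 12.04 in Ab_IR and 13.74, 13.33 and 13.2 in L_IR. IR was lowest, L_IR lay above all of Ctrl, and the fall in IR was 2.71-fold (log2 fold change -1.25, SE 0.11, adjusted p 0.000366). Rsad2 (viperin), a neighbour of Cmpk2 that makes a chain-terminating nucleotide, was chosen after the values were seen and stood at 1.05, 5.91 and 2.35 FPKM in Ctrl, 0.33, 2.64 and 2.4 in IR, 13.12, 7.62 and 7.37 in Ab_IR and 12.58, 12.79 and 12.79 in L_IR. Ctrl and IR overlapped and differed between their own libraries by 5.63-fold and 8-fold, and the test between them gave log2 -0.51 at adjusted p 0.495. Both agent groups lay above every Ctrl and IR library, by log2 1.98 at adjusted p 0.00321 over IR in Ab_IR and log2 2.43 at adjusted p 0.000884 in L_IR.

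Oas enzymes make the oligoadenylate that switches on RNase L. Oas1a was at 17.56, 23.41 and 23.48 FPKM in Ctrl, 15.3, 15.91 and 16.46 in IR, 21.1, 21.07 and 20.68 in Ab_IR and 19.76, 18.68 and 18.25 in L_IR. IR was lowest without overlap (log2 fold change -0.40, SE 0.12, adjusted p 0.0352), although 12 alternatives lost this call, and 47.6% of the 75-base windows of Oas1a transcripts also occur in Oas1g, so that its reads could be split between the pair. Oasl1, a family member without that enzyme activity, was at 5.97, 9.74 and 9.7 FPKM in Ctrl, 2.99, 3.94 and 3.85 in IR, 10.75, 11.41 and 11.22 in Ab_IR and 12.14, 10.19 and 9.65 in L_IR. It was lower in IR (log2 fold change -1.02, SE 0.19, adjusted p 0.00647) and, in every Ab_IR library, above Ctrl. Oas2 (log2 -0.45 at adjusted p 0.0397), Oas3 (log2 -0.94 at adjusted p 0.00562) and Oasl2 (log2 -0.89 at adjusted p 0.0134) also fell in IR from levels within 0.39 to 8.09 FPKM. The call of Oas2 was lost under 12 of 22 alternatives, and Oasl2 entered the test only through the Ctrl libraries. Oas2 was the sole enzyme of the 10 that was lower in L_IR than in IR (log2 -0.18 at adjusted p 0.0262), and it was also lower in L_IR than in Ctrl (log2 -0.63 at adjusted p 0.0428). The first of these calls was lost under 7 of 22 alternatives (adjusted p up to 0.226) and the second under 12 of 22 alternatives (adjusted p up to 0.178). Eif2ak2 (PKR), the kinase that halts translation on double-stranded RNA, was at 12.19, 10.67 and 11.37 FPKM in Ctrl, 9.51, 9.78 and 9.66 in IR, 8.94, 8.85 and 8.45 in Ab_IR and 10.52, 11.57 and 11.06 in L_IR. Ab_IR was lowest, IR next, and Ctrl and L_IR overlapped above them. Its fall in IR (log2 fold change -0.22, SE 0.068, adjusted p 0.0407) was lost under 13 alternatives, and it was the enzyme that was lower in Ab_IR than in IR (log2 -0.13 at adjusted p 0.0224), a call lost under 7 of 23 alternatives (adjusted p up to 0.0772). Samhd1, which degrades deoxynucleotides, was at 20.54, 17.65 and 17.71 FPKM in Ctrl, 14.93, 14.46 and 14.28 in IR, 20.91, 19.17 and 17.6 in Ab_IR and 20.7, 19.79 and 20.01 in L_IR. IR was lowest without overlap (log2 fold change -0.33, SE 0.076, adjusted p 0.0141), a call lost under 6 of 23 alternatives, and the other 3 groups overlapped.

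**Figure D3:**
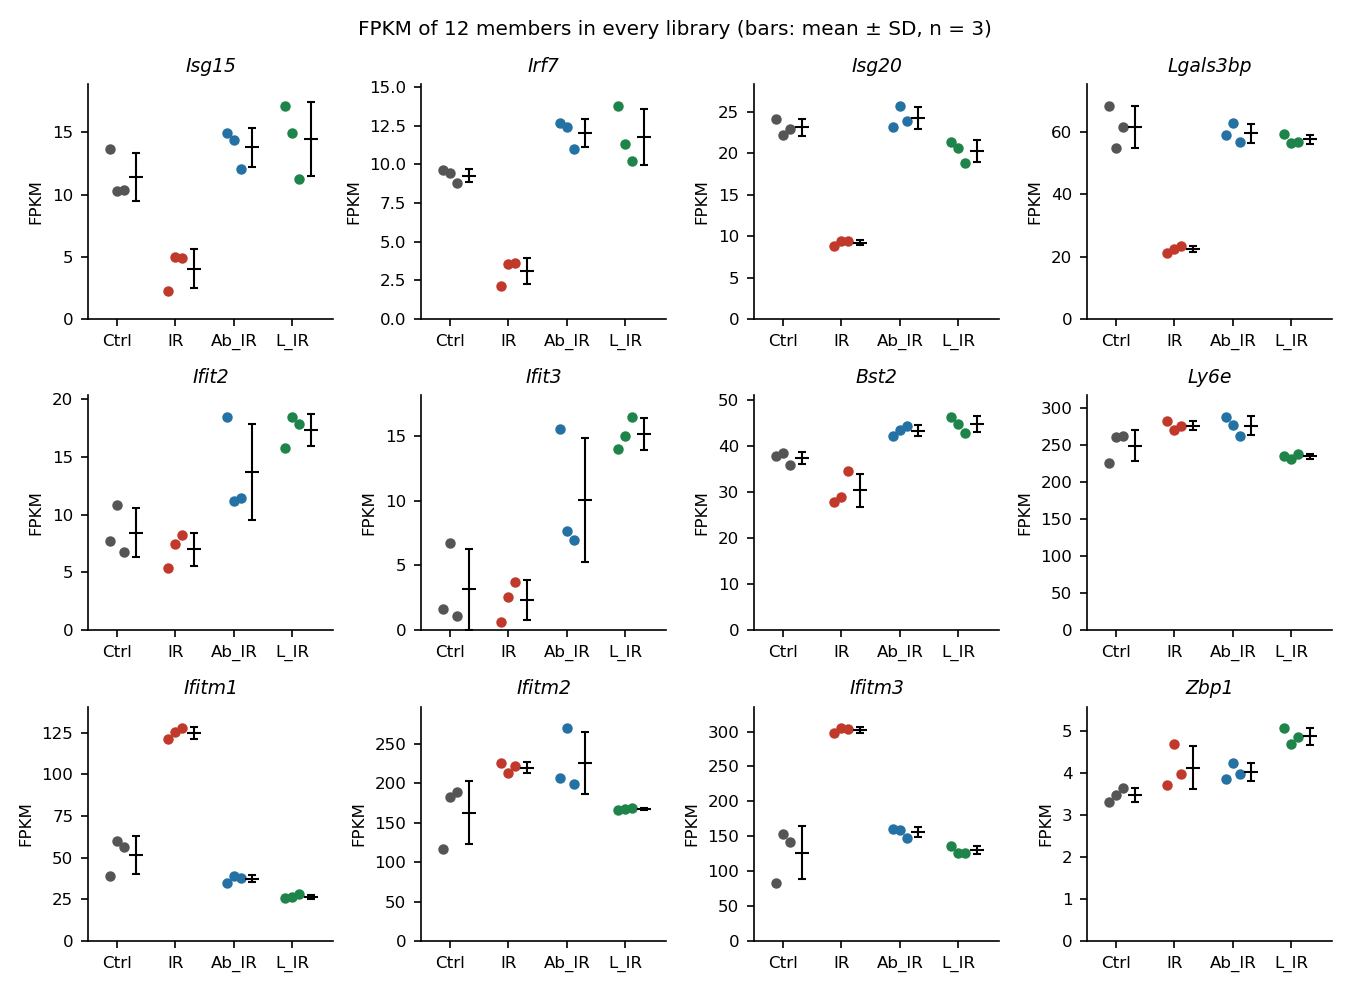
FPKM of 12 members in each library (dots) with the group mean and SD (n = 3), for Ctrl, IR, Ab_IR and L_IR, each panel on its own linear axis. The IR dots are lowest for Isg15, Irf7, Isg20, Lgals3bp and Bst2, highest for Ifitm1 and Ifitm3, and overlap Ctrl for Ifit2 and Ifit3.

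The IFIT family, which binds viral RNA that lacks host cap marks, did not pass in IR against Ctrl for any of 3 members tested (Ifit1, Ifit2 and Ifit3). These 3 were higher in both agent groups than in IR (background 39.4% in Ab_IR and 40.8% in L_IR). The 4 genes lie together on chromosome 19 and summed to 9.86 to 23.78 FPKM in Ctrl, 6.67 to 14.79 in IR, 24.95 to 45.66 in Ab_IR and 39.85 to 46.5 in L_IR. Ifit2 was at 7.71, 10.81 and 6.78 FPKM in Ctrl, 5.41, 7.43 and 8.2 in IR, 18.49, 11.2 and 11.45 in Ab_IR and 15.79, 18.46 and 17.86 in L_IR. Ctrl and IR overlapped (log2 fold change -0.23, SE 0.20, adjusted p 0.389), and every Ab_IR and L_IR library lay above both. The Ab_IR calls against IR of Ifit2 and Ifit3 did not pass with no filter on low values (adjusted p 0.0621 and 0.0629). Against IR, Ifit2 was higher by log2 0.86 at adjusted p 0.00748 in Ab_IR and log2 1.21 at adjusted p 0.000197 in L_IR. Ifit3 was at 1.61, 6.75 and 1.07 FPKM in Ctrl, 0.66, 2.59 and 3.75 in IR, 15.56, 7.64 and 6.95 in Ab_IR and 14.01, 15 and 16.49 in L_IR. Within Ctrl its libraries differed by 6.31-fold and within IR by 5.68-fold, and the test between them gave log2 fold change -0.19, SE 0.59, adjusted p 0.821, a sign that turned without Ctrl 2 or IR 1. L_IR held Ifit3 at 15.2 ± 1.25 FPKM (SD, n = 3) against 2.33 ± 1.56 in IR (log2 fold change 2.40, SE 0.35, adjusted p 0.000833), and Ab_IR gave log2 1.78 at adjusted p 0.00733. Ifit1, named after its values were seen, was at 0.88, 3.35 and 1.62 FPKM in Ctrl, 0.55, 1.41 and 1.93 in IR, 6.53, 4.28 and 4.32 in Ab_IR and 6.47, 6.53 and 6.55 in L_IR, with the 6 agent libraries above the 6 others. Its differences from IR were log2 1.42 at adjusted p 0.00145 in Ab_IR and log2 1.76 at adjusted p 0.000311 in L_IR. Ifit3b was within 0.05 to 5.6 FPKM, below the filter in IR against Ctrl. It entered the tests against IR only through the agent libraries, where it is high, and is not counted with the other 3. It shares 35.7% of its windows with other genes and Ifit3 shares 41.1% with Ifit3b, so the values of this pair are uncertain.

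Mx1, a GTPase that traps viral nucleocapsids, was higher in each agent group than in IR. Chosen after the values were seen, it was at 1.65, 2.91 and 1.54 FPKM in Ctrl, 0.98, 1.66 and 1.53 in IR, 6.09, 4.42 and 4.25 in Ab_IR and 6.54, 6.93 and 6.4 in L_IR. Ctrl and IR overlapped (log2 -0.33 at adjusted p 0.238), and the 6 agent libraries were above them, by log2 1.31 at adjusted p 0.000181 over IR in Ab_IR and log2 1.68 at adjusted p 1.55e-05 in L_IR. Its relative Mx2, also chosen after its values were seen, was at 0.5, 1.39 and 1.07 FPKM in Ctrl, 0.24, 0.4 and 0.39 in IR, 2.25, 1.36 and 1.4 in Ab_IR and 1.81, 1.91 and 1.77 in L_IR. Mx2 was below the filter in IR against Ctrl and entered the tests against IR only through the agent libraries, where it is high, so its values are given as a description.

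Of the 4 sensors of viral nucleic acid, 2 fell in IR (background 25.5%). Ifih1 (MDA5), a sensor of long double-stranded RNA, gave log2 -0.37 at adjusted p 0.0133, a call lost under 3 of 22 alternatives (adjusted p up to 0.0949), and Dhx58 (LGP2), which regulates it, gave log2 -0.86 at adjusted p 0.000454. Ddx58 (RIG-I) gave log2 -0.079 at adjusted p 0.5, with a sign that turned under quantile normalization. These 3 had levels within 3.04 to 9.09 FPKM. Zbp1, which senses nucleic acid in the Z form and can start necroptosis, was at 3.32, 3.47 and 3.65 FPKM in Ctrl, 3.72, 4.7 and 3.98 in IR, 3.85, 4.25 and 3.98 in Ab_IR and 5.08, 4.69 and 4.85 in L_IR. All 3 Ctrl libraries were below the other 9, while IR against Ctrl did not pass (log2 fold change 0.19, SE 0.093, adjusted p 0.143). L_IR was above Ctrl (log2 fold change 0.39, SE 0.070, adjusted p 0.0209), a call lost under 9 of 22 alternatives (adjusted p up to 0.138), and the call of L_IR over IR (log2 0.20 at adjusted p 0.0492) was lost under 18 of 22 alternatives.

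The membrane restriction factors did not move in 1 direction. They hold the 3 most abundant members, and their sum was 502.6 to 695.6 FPKM in Ctrl, 942.6 to 963.8 in IR, 692.3 to 789.4 in Ab_IR and 596.2 to 609.7 in L_IR. Ifitm3, which blocks fusion of viruses in endosomes, was at 83.79, 153.72 and 142.16 FPKM in Ctrl, 297.92, 305.28 and 303.71 in IR, 160.92, 159.4 and 147.77 in Ab_IR and 136.8, 126.47 and 126.45 in L_IR. IR was above every other library. Its mean was 302 ± 3.88 FPKM in IR against 127 ± 37.5 in Ctrl (SD, n = 3), 2.39-fold higher (log2 fold change 1.30, SE 0.22, adjusted p 0.00466). The difference from IR was log2 -0.95 at adjusted p 1.55e-06 in Ab_IR and log2 -1.21 at adjusted p 4.36e-07 in L_IR, and with the Nppa split as a term the Ab_IR value was -0.14 (adjusted p 0.177). Ifitm1, its relative at the cell surface, was at 38.78, 60.12 and 56.68 FPKM in Ctrl, 121.22, 125.41 and 128.01 in IR, 34.98, 39.11 and 38.13 in Ab_IR and 25.7, 26.18 and 28.02 in L_IR. IR was highest and L_IR lowest, and Ab_IR overlapped Ctrl through Ctrl 1. Ifitm1 rose 2.41-fold in IR (log2 fold change 1.28, SE 0.16, adjusted p 0.00147) and was lower than IR in Ab_IR (log2 -1.71 at adjusted p 2.6e-07) and in L_IR (log2 -2.19 at adjusted p 5.73e-08).

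Ifitm2, the third gene of this cluster, was at 117.28, 182.96 and 188.54 FPKM in Ctrl, 225.64, 212.74 and 221.94 in IR, 207.06, 270.62 and 199.55 in Ab_IR and 166.08, 167.86 and 168.92 in L_IR. All 3 IR libraries were above Ctrl, but the test did not pass (log2 fold change 0.46, SE 0.18, adjusted p 0.086). Ab_IR overlapped IR (log2 0.023 at adjusted p 0.859), and L_IR was below IR (log2 -0.39 at adjusted p 2.1e-05), a call lost with all 12 libraries in 1 fit and turned to 0.27 with the Nppa split as a term. Other genes share 42% of its windows, and it overlaps Gm45717, so its level is uncertain. Ly6e, a lipid-anchored surface protein that restricts coronaviruses, was the member with the highest level in Ctrl, at 224.93, 260.18 and 261.61 FPKM in Ctrl, 282.19, 270.26 and 275.54 in IR, 287.88, 276.63 and 262.46 in Ab_IR and 234.74, 230.77 and 237.62 in L_IR. IR lay above Ctrl without passing (log2 fold change 0.15, SE 0.081, adjusted p 0.18), and L_IR lay below IR and Ab_IR (log2 -0.23 at adjusted p 0.000165 against IR, but -0.022 at adjusted p 0.802 with the Nppa split as a term). Bst2 (tetherin), which holds budding virions at the membrane, followed the main direction of the list at 37.78, 38.59 and 35.91 FPKM in Ctrl, 27.93, 28.89 and 34.55 in IR, 42.11, 43.6 and 44.43 in Ab_IR and 46.39, 44.9 and 42.93 in L_IR. IR was lowest and both agent groups were above all Ctrl libraries. The fall in IR (log2 fold change -0.29, SE 0.092, adjusted p 0.0418) was lost under 12 alternatives, and the rises over IR were log2 0.50 at adjusted p 0.00082 in Ab_IR and log2 0.55 at adjusted p 0.000717 in L_IR. For the 5 genes together the median was at 0.46 in IR against Ctrl, -0.0026 in Ab_IR against IR and -0.39 in L_IR against IR.

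Among the 11 other members, 9 of 10 tested fell in IR (background 25.5%) and none rose, and 9 were higher than IR in each agent group (background 39.4% in Ab_IR and 40.8% in L_IR). Lgals3bp, a secreted glycoprotein that binds galectins, was the most abundant of them, at 68.36, 54.86 and 61.53 FPKM in Ctrl, 21.27, 22.56 and 23.35 in IR, 59.14, 62.73 and 56.76 in Ab_IR and 59.29, 56.59 and 56.82 in L_IR. IR stood apart from 3 overlapping groups, with a mean of 22.4 ± 1.05 FPKM against 61.6 ± 6.75 in Ctrl (SD, n = 3), 2.75-fold lower (log2 fold change -1.42, SE 0.092, adjusted p 0.000108). It was higher than IR by log2 1.37 at adjusted p 8.41e-07 in Ab_IR and log2 1.32 at adjusted p 4.73e-07 in L_IR. Ifi27, a small mitochondrial and nuclear membrane protein, was at 18.03, 36.8 and 36.84 FPKM in Ctrl, 10.27, 11.25 and 9.97 in IR, 29.05, 32.25 and 30.91 in Ab_IR and 20.47, 19.53 and 21.07 in L_IR. IR was lowest (log2 fold change -1.39, SE 0.27, adjusted p 0.00744), and Ctrl 1 was below the other 2 Ctrl libraries and all Ab_IR and L_IR libraries. Its relative Ifi27l2a was at 8.52, 26.32 and 22.49 FPKM in Ctrl, 5.28, 5.13 and 7.88 in IR, 18.73, 24.77 and 27.6 in Ab_IR and 19.56, 17.81 and 18.37 in L_IR. Ctrl 1 lay near the IR libraries, and the fall in IR (log2 fold change -1.39, SE 0.40, adjusted p 0.0331) was lost under 11 alternatives. Ifi35 was at 15.8, 16.4 and 16.01 FPKM in Ctrl, 12.21, 11.34 and 11.33 in IR, 17.97, 16.29 and 16.66 in Ab_IR and 15.13, 15.63 and 14.35 in L_IR. The order ran from IR through L_IR to Ctrl and Ab_IR (log2 fold change -0.44, SE 0.060, adjusted p 0.00198).

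Sp100, a component of nuclear bodies, was at 18.59, 18.78 and 18.5 FPKM in Ctrl, 14.48, 13.85 and 14.53 in IR, 20.17, 18.58 and 17.95 in Ab_IR and 16.82, 16.68 and 16.99 in L_IR. IR was lowest and L_IR next, both without overlap with Ctrl, and IR against Ctrl gave log2 fold change -0.36, SE 0.055, adjusted p 0.0029. Trim30a, a ubiquitin ligase of the TRIM family, was at 19.31, 21.12 and 20.34 FPKM in Ctrl, 18.67, 18.62 and 18.53 in IR, 21.72, 18.63 and 17.77 in Ab_IR and 19.06, 19.16 and 19.09 in L_IR. IR lay below Ctrl and L_IR but overlapped Ab_IR, and the test gave log2 -0.12 at adjusted p 0.162. Named after the values were seen, Rtp4, a chaperone of receptors, was at 5.91, 5.85 and 5 FPKM in Ctrl, 0.95, 1.11 and 1.18 in IR, 5.22, 4.77 and 4 in Ab_IR and 3.82, 3.5 and 3.67 in L_IR, and Xaf1, a promoter of apoptosis, at 7.36, 5.33 and 5.34 FPKM in Ctrl, 1.41, 1.43 and 1.46 in IR, 4.39, 4.88 and 4.5 in Ab_IR and 5.02, 4.55 and 4.71 in L_IR. These had the 2 steepest falls of the list in IR, 5.17-fold for Rtp4 (log2 fold change -1.66, SE 0.093, adjusted p 6.19e-05) and 4.19-fold for Xaf1 (log2 fold change -1.51, SE 0.12, adjusted p 0.000256). Rtp4 was also lower in L_IR than in Ctrl (log2 -0.50 at adjusted p 0.0165), a call lost under 9 of 22 alternatives (adjusted p up to 0.103). Ifi203 (log2 -0.996 at adjusted p 0.00187) and Ifi204 (log2 -0.99 at adjusted p 0.00552), DNA-binding proteins of the same cluster on chromosome 1, also fell in IR, from levels within 1.79 to 8.7 FPKM. Sequence shared with other genes also touches Ifi204 (13.2% of windows), Herc6 (11.3%), Rtp4 (10.5%), Ifi203 (5.71%) and Ifit1 (5.19%). Ifi44 was at most 1.27 FPKM and was tested only in Ab_IR against L_IR and Ab_IR against Ctrl.

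Agents Ab and L were compared directly within irradiated mice. None of the 46 members differed by more than 2-fold (background 0.533% of 12194 rows), 12 were higher in Ab_IR (background 18.2%) and 8 were lower (background 19.8%), with a median of -0.04. Higher in Ab_IR were Dhx58, Usp18, Oas1a, Isg20, Ifitm1, Ifitm2, Ifitm3, Ly6e, Ifi27, Ifi35, Rtp4 and Sp100, led by Ifi27 (log2 fold change 0.57, SE 0.050, adjusted p 0.000268) and Ifitm1 (log2 fold change 0.47, SE 0.054, adjusted p 0.000786). On the other side, higher in L_IR were Zbp1, Stat2, Trim25, Dtx3l, Parp14, Eif2ak2, Mx1 and Ifi203, led, as Ab_IR against L_IR, by Ifi203 (log2 fold change -0.49, SE 0.10, adjusted p 0.00824) and Mx1 (log2 fold change -0.38, SE 0.11, adjusted p 0.0335). Several of these calls were lost under many alternatives, that of Mx1 under 13 of 22 alternatives (adjusted p up to 0.164), those of Dhx58, Usp18, Oas1a, Rtp4 and Sp100 under 13 or 14, that of Ifi35 under 16 and that of Ifitm2 under 9. Scaling to a common sum without immunoglobulin genes moved the median of all rows by -0.12 in this comparison and turned the split of calls to 2 higher and 16 lower of 18. Relative to the median of all rows, the median of the members was -0.0484 as deposited and -0.0506 under that scaling. Leaving out a library of L_IR gave 13 (without L_IR 1), 12 (without L_IR 2) and 11 members (without L_IR 3).

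Ab_IR and L_IR were also set against Ctrl, which they share. In Ab_IR, 0 of 46 members passed (background 2.1% of 12134 rows by either direction), 13 had an unadjusted limma p under 0.05 (20.9% of rows), and the lowest adjusted p was 0.0727 for Mx1. The same comparison gave 8 calls when limma was fitted over all 12 libraries, 24 with the Nppa split as a term, 4 without Ctrl 1 and 1 without Ctrl 2. The share of all rows called in those fits is not given, so these counts do not set the members apart from other rows. By order, 11 members lay above Ctrl in all 3 Ab_IR libraries (background 16%) and 8 below (background 17.6%). For L_IR the order put 13 members above Ctrl (background 17.6%) and 12 below (background 18.4%). In L_IR, 7 of 45 tested members were higher (background 4.76% of 12251 rows) and 4 lower (background 4.08%), with a median of 0.08. The 7 were Zbp1, Parp14, Rsad2, Ifit1, Ifit2, Ifit3 and Mx1, of which Ifit3 (log2 fold change 2.22, SE 0.47, adjusted p 0.0368), Rsad2 (log2 fold change 1.92, SE 0.41, adjusted p 0.0363), Ifit1 (log2 fold change 1.44, SE 0.28, adjusted p 0.0302) and Mx1 (log2 fold change 1.36, SE 0.17, adjusted p 0.00528) were more than 2-fold higher (background 2.03%). The 4 lower members were Irf9, Oas2, Rtp4 and Ifitm1 (log2 fold change -0.91, SE 0.16, adjusted p 0.0214). This count was 24 (10 lower, 14 higher) without Ctrl 1, 6 without Ctrl 2, 5 without Ctrl 3 and 1 whichever L_IR library was left out, and scaling without immunoglobulin genes gave 7 higher and 2 lower. For these counts, too, the share of all rows is not given. Of the 11 calls, that of Mx1 held under all of its 22 alternatives (adjusted p up to 0.0443), and the other 10 were each lost under 7 (Ifit2) to 12 (Irf9 and Oas2). Of these 11 genes, Mx1, Zbp1, Parp14, Rtp4 and Ifitm1 passed in the direct test of Ab_IR against L_IR and Ifit1, Ifit2, Ifit3, Rsad2, Irf9 and Oas2 did not. The direct call of Rtp4 was lost under 13 of 22 alternatives (adjusted p up to 0.2), that of Zbp1 under 3, and those of Parp14 and Ifitm1 under 0.

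**Figure D4:**
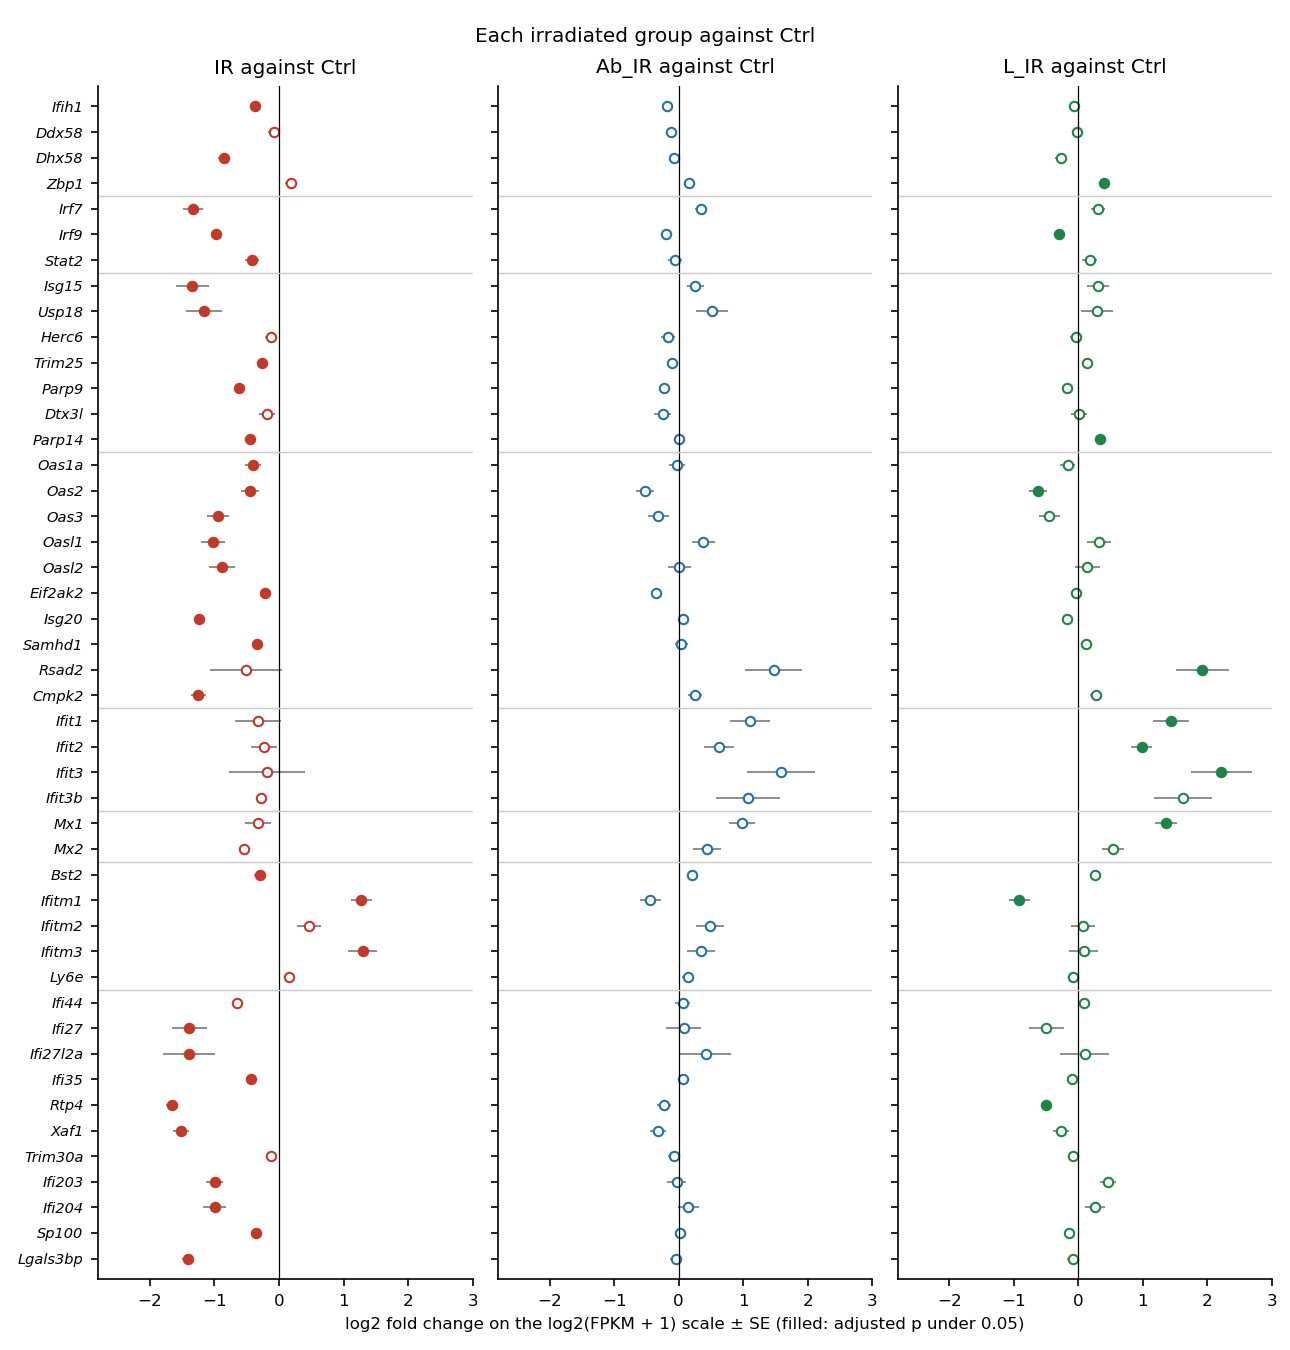
Log2 fold change with its SE for each of the 46 members in IR, Ab_IR and L_IR against Ctrl, on the log2(FPKM + 1) scale (filled points, adjusted p under 0.05, no error bar where not tested). The IR points lie left of 0 for most members and right of 0 for Ifitm1 and Ifitm3, while Ab_IR has 0 filled points and L_IR has 11, with Ifit3, Rsad2, Ifit1 and Mx1 farthest to the right.

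Spread between libraries of a group differed by group and gene. The highest library was, as a median over the 46 members, 1.36 times the lowest in Ctrl, 1.17 times in IR, 1.12 times in Ab_IR and 1.08 times in L_IR. For Rsad2 the ratio was 5.63 between Ctrl libraries, 8 between those of IR, 1.78 in Ab_IR and 1.02 in L_IR, and for Ifit1 it was 3.81, 3.51, 1.53 and 1.01. Within Ctrl, library 2 was highest for Ifit1, Ifit2, Ifit3, Rsad2 and Mx1, and within IR, library 1 was lowest for the same genes.

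Genes upstream of the members were called in both directions. Of 40 pathway genes with a row (5 type I ligands, Ifng, 6 receptor chains, 5 kinases and signal transducers, 13 genes of sensing and induction, Irf1 and Irf2, and 8 negative regulators), 31 were tested in IR against Ctrl, with 6 lower (background 25.5%) and 11 higher (background 17.5%). In Ab_IR against IR, 33 were tested, with 14 lower (background 29.4%) and 9 higher (background 39.4%). In L_IR against IR 33 were tested, with 14 lower (background 26%) and 14 higher (background 40.8%). Apart from Ifnlr1, which passed the filter through IR alone, and Tlr9 and Trex1, which passed it through the agent group alone, the counts were 6 lower and 10 higher of 30 in IR against Ctrl, 13 and 7 of 30 in Ab_IR against IR, and 13 and 12 of 30 in L_IR against IR. The type I ligands with a row did not exceed 0.12 FPKM in any library, and Ifng was between 1.66 and 4.12 FPKM.

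Ifnar1, a chain of the type I receptor, was at 9.15, 8.26 and 8.83 FPKM in Ctrl, 9.29, 9.02 and 9.05 in IR, 9.36, 8.91 and 8.99 in Ab_IR and 11.14, 10.43 and 11.62 in L_IR. Ctrl and IR overlapped (log2 0.055 at adjusted p 0.521), and L_IR was above all others (log2 0.25 at adjusted p 0.00178 against IR). Ifnar2, its partner, was at 22.31, 20.41 and 21.8 FPKM in Ctrl, 19.95, 19.7 and 20.06 in IR, 24.99, 25.34 and 21.93 in Ab_IR and 22.8, 23.09 and 23.58 in L_IR. IR lay below every other library without passing against Ctrl (log2 -0.11 at adjusted p 0.198), and both agent groups were higher than IR (log2 0.26 at adjusted p 0.00494 in Ab_IR and log2 0.21 at adjusted p 0.000358 in L_IR). The type II receptor chain Ifngr1 was at 86.47, 83 and 84.31 FPKM in Ctrl, 73.55, 74.39 and 74.13 in IR, 77.91, 76.34 and 74.13 in Ab_IR and 76.33, 76.97 and 77.75 in L_IR and fell in IR (log2 -0.19 at adjusted p 0.029). Its partner Ifngr2 was at 5.16, 6.88 and 6.94 FPKM in Ctrl, 8.49, 9.86 and 8.34 in IR, 7.44, 7.2 and 7.32 in Ab_IR and 7.19, 6.96 and 7.32 in L_IR and rose (log2 0.44 at adjusted p 0.0289). Of the type III receptor, Ifnlr1 was at 0.67, 0.33 and 0.31 FPKM in Ctrl, 1.99, 1.55 and 1.72 in IR, 0.4, 0.32 and 0.39 in Ab_IR and 0.2, 0.21 and 0.11 in L_IR, highest in IR and admitted to the test through the IR libraries alone, and Il10rb at 8.26, 8.54 and 8.86 FPKM in Ctrl, 9.67, 9.78 and 9.5 in IR, 8.93, 9.17 and 9.09 in Ab_IR and 7.7, 8.44 and 8.55 in L_IR (log2 0.16 at adjusted p 0.0744).

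Receptor kinases showed no common direction. Jak1 was at 31.03, 26.07 and 28.84 FPKM in Ctrl, 32.87, 33.69 and 33.76 in IR, 24.98, 25.82 and 24.46 in Ab_IR and 31.02, 30.37 and 31.62 in L_IR (log2 0.22 at adjusted p 0.0575 in IR against Ctrl, log2 -0.40 at adjusted p 4.81e-05 in Ab_IR against IR). Tyk2 was at 9.26, 8.84 and 10.96 FPKM in Ctrl, 12.67, 12.83 and 13.25 in IR, 9.63, 11 and 10.8 in Ab_IR and 14.77, 13.64 and 13.52 in L_IR, higher in IR than in Ctrl (log2 0.39 at adjusted p 0.0134) and lower in Ab_IR than in IR (log2 -0.28 at adjusted p 0.0028). Jak2, which serves the type II receptor, went the other way at 29.33, 23.92 and 21.45 FPKM in Ctrl, 16.78, 17.45 and 17.45 in IR, 23.67, 21.97 and 21.2 in Ab_IR and 23.33, 23.34 and 23.57 in L_IR, lower in IR than in Ctrl (log2 -0.50 at adjusted p 0.0141) and higher in Ab_IR than in IR (log2 0.35 at adjusted p 0.000443). Among the interferon regulatory factors, Irf1 was at 17.82, 20.37 and 21.16 FPKM in Ctrl, 11.05, 10.2 and 10.78 in IR, 19.19, 18.51 and 17.67 in Ab_IR and 22.34, 21.96 and 20.65 in L_IR and Irf8, a factor of monocytes and dendritic cells, at 22.41, 24.75 and 27.99 FPKM in Ctrl, 7.69, 7.65 and 7.34 in IR, 30.44, 31.51 and 30.15 in Ab_IR and 32.41, 32.53 and 32.91 in L_IR. IR was below the other groups without overlap for both, Irf1 (log2 fold change -0.83, SE 0.081, adjusted p 0.000505) and Irf8 (log2 fold change -1.60, SE 0.089, adjusted p 6.2e-05). Over IR, Irf8 was higher by log2 1.89 at adjusted p 6.38e-08 in Ab_IR and log2 1.97 at adjusted p 2.81e-08 in L_IR, and Irf1 by log2 0.74 at adjusted p 9.94e-06 and log2 0.96 at adjusted p 2.67e-06. Irf3, which induces interferon downstream of the sensors, was at 14.24, 16.18 and 16.65 FPKM in Ctrl, 16.74, 18.1 and 17.11 in IR, 19.18, 17.85 and 16.66 in Ab_IR and 15.69, 14.98 and 15.12 in L_IR and did not pass in IR against Ctrl (log2 0.14 at adjusted p 0.203). Of the 13 genes of sensing and induction, 11 were tested in IR against Ctrl, and 5 rose (background 17.5%) and 3 fell (Irf8, Mavs and Irf5, with a background of 25.5%). Of these, named after their values were seen, Myd88, the adaptor of most Toll-like receptors, was at 24.91, 22.27 and 23.73 FPKM in Ctrl, 51.71, 53.3 and 55.19 in IR, 27.46, 27.36 and 24.45 in Ab_IR and 25.19, 24.31 and 26.31 in L_IR. IR was above every other library, 2.26-fold over Ctrl (log2 fold change 1.14, SE 0.065, adjusted p 6.59e-05). Also higher in IR were the kinases Ikbke (log2 0.67 at adjusted p 0.000705) and Tbk1 (log2 0.32 at adjusted p 0.0199), the adaptor Sting1 of DNA sensing (log2 0.52 at adjusted p 0.000587) and the Toll-like receptor adaptor Ticam1 (log2 0.34 at adjusted p 0.0308). Mavs, the adaptor of the RNA sensors, fell (log2 -0.62 at adjusted p 0.00183), as did Irf5 (log2 -0.43 at adjusted p 0.00483). Each of the 5 that rose was lower in both agent groups than in IR (background 29.4% in Ab_IR and 26% in L_IR). Socs1, an inhibitor of the kinases, was at 0.74, 0.45 and 0.35 FPKM in Ctrl, 0.75, 0.86 and 0.98 in IR, 0.41, 0.68 and 0.68 in Ab_IR and 0.79, 0.63 and 0.59 in L_IR, below the filter. Of the 6 negative regulators tested in IR against Ctrl, 2 rose (background 17.5%) and 0 fell (background 25.5%). The 2 were Socs3 (log2 0.48 at adjusted p 0.029) and the phosphatase Ptpn6 (log2 0.52 at adjusted p 0.00517), and the signal transducer Stat3 also rose (log2 0.82 at adjusted p 0.000787). These 3, named after their values were seen, were lower in both agent groups than in IR (background 29.4% in Ab_IR and 26% in L_IR). Trex1, also named after its values were seen, was below the filter in IR against Ctrl. It was at 6.43, 0.86 and 5.44 FPKM in Ctrl and 0.47, 0.79 and 0.61 in IR, lower without overlap. Ly6a, which encodes the Sca-1 of the sort gate and is induced by interferon, was at 25.92, 41.13 and 38.17 FPKM in Ctrl, 53.66, 60.53 and 61.47 in IR, 41.23, 37.46 and 35.67 in Ab_IR and 45.49, 45.4 and 45.76 in L_IR. Against the direction of most members it rose in IR (log2 fold change 0.75, SE 0.17, adjusted p 0.0145) and was lower in Ab_IR (log2 -0.61 at adjusted p 0.000193) and L_IR (log2 -0.35 at adjusted p 0.000761) than in IR.

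**Figure D5:**
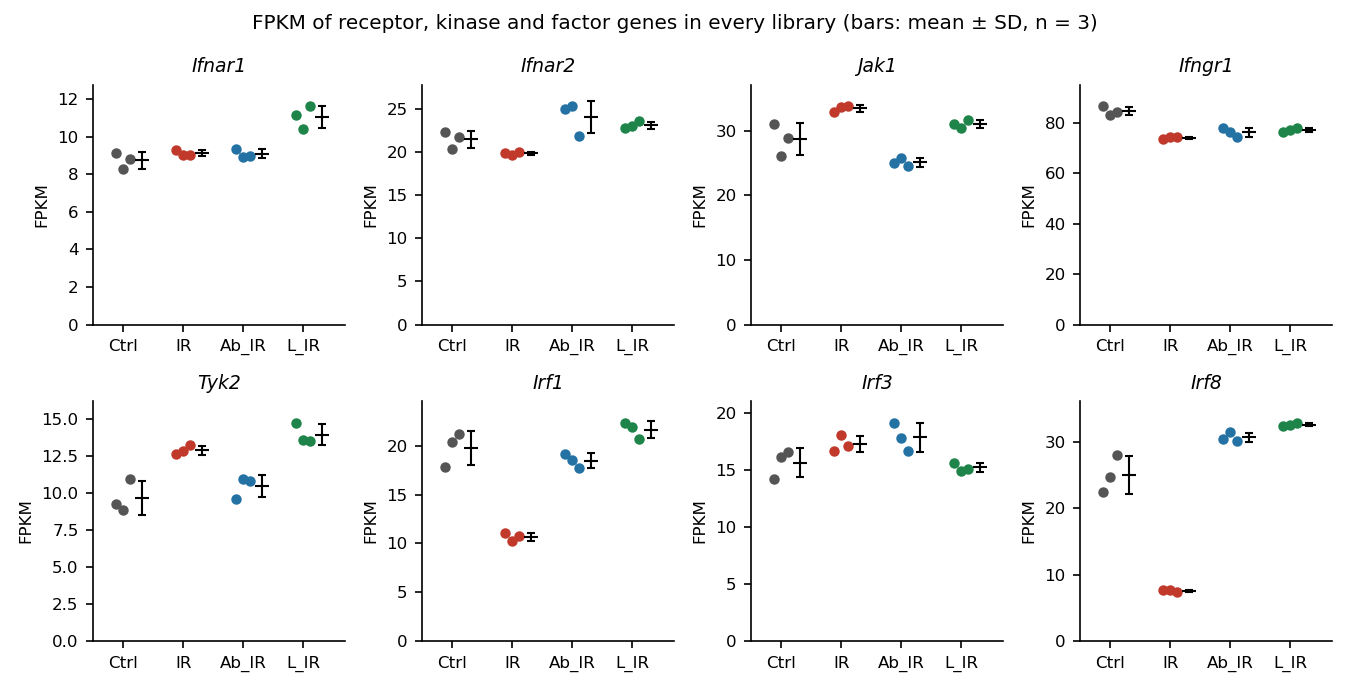
FPKM of Ifnar1, Ifnar2, Jak1, Ifngr1, Tyk2, Irf1, Irf3 and Irf8 in each library (dots) with the group mean and SD (n = 3), each panel on its own linear axis. The IR dots are lowest for Irf1 and Irf8, at 10.2 to 11.05 and 7.34 to 7.69 FPKM, below every library of the other groups.

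Members with and without the promoter element moved in the same main direction. Of the 16 with the longer core, 15 were tested in IR against Ctrl, of which 8 fell (background 25.5%) and 1 rose (background 17.5%), and the median over the 16 was -0.31. Of the 17 with an entry and no match, 16 were tested, of which 12 fell (11 of 15 apart from Oasl2, which passed the filter through Ctrl alone) and 1 rose, and the median over the 17 was -0.65. Apart from Ifit3b and Oasl2, which passed the filter only through the group with the agent, 10 of 15 tested with the core and 12 of 15 tested without it were higher in Ab_IR than in IR (background 39.4%). In L_IR against IR these counts were 11 of 15 and 13 of 15 (background 40.8%). These counts describe the list and were not tested against each other. Of the sequences printed above, Isg15 with 3 matches fell in IR, and Ifitm3 with 2 rose. By position, 6 members lie on chromosome 7, 6 on chromosome 16, 5 on each of chromosomes 5 and 11, and 4 on each of chromosomes 12 and 19, with the remaining 16 on 10 others.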

How the data were processed

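Bone marrow cells sorted as HSCs were measured by RNA-seq (RNeasy Micro extraction, TruSeq Stranded mRNA libraries) in 12 libraries, in 4 groups of 3 set by the treatment label. The authors deposited 1 table of FPKM per gene and library, and no counts, so depth and counting error are unknown. The submitters' processing notes name fastp, HISAT2, StringTie and GRCm38 (mm10). The study's methods name RSEM for its RNA-seq. No count model was run here, because FPKM are not counts. FPKM is scaled to the library, so a gene's value also moves when other genes take more of it.

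Of the 31340 rows, 96.7% carry a name matching a single GENCODE gene and 62 names occur on more than 1 row. For each comparison, rows that reached 1 FPKM in 3 or more of the 6 libraries were tested with limma 3.58.1 in R 4.3.3 (lmFit, then eBayes with trend) on log2(FPKM + 1), fitting only the 2 groups compared, with Benjamini-Hochberg adjustment over all rows tested and a threshold of 0.05. Counts of more than 2-fold use a log2 fold change beyond 1 in either direction. The procedure was tested on simulated data. Tables and plots were made with Python 3.11.15, pandas 2.3.3, numpy 2.4.6 and matplotlib 3.10.9.

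Members and lists were chosen with earlier results of these data known. Levels in every library are given for the 24 members of highest mean FPKM and for members whose IR difference opposed the list or that were listed at 0, which came to 25. Other members are given by range and counts, or are said to have been chosen after their values were seen. Alternatives were a pseudocount of 0.1, no filter, a filter on the mean at 5 FPKM, quantile normalization, median ratio scaling, a common sum without immunoglobulin genes, limma without trend, all 12 libraries in 1 fit, the Nppa split (at 1 FPKM) as a term, replicate number as a block, summed rows of 1 name and leaving out each library. Shared sequence is the share of 75-base transcript windows also found in other GENCODE genes. Values of 1 pathway gene and 1 marker gene are not reported here.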

Additional observations from a re-analysis of the deposited data

How the results depend on the processing

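The count of members passing kept within 1.5 times of its value under the alternatives for IR against Ctrl, Ab_IR against IR and L_IR against IR, except where given here, and depth could not be judged from FPKM. Shares of all rows called under the alternatives are not given, so the counts here describe the members alone. Leaving out each library gave 21 (without IR 1) to 32 (without Ctrl 1) members and medians of -0.5633 to -0.4077 in IR against Ctrl, 33 to 36 and 0.6645 to 0.7689 in Ab_IR against IR, and 37 to 42 and 0.656 to 0.7535 in L_IR against IR. It gave 11 to 22 and -0.0639 to -0.009 in Ab_IR against L_IR, 0 to 4 and 0.0088 to 0.0629 in Ab_IR against Ctrl, and 1 to 24 and 0.0048 to 0.1078 in L_IR against Ctrl. On the rows of the full fit these counts were 22 to 33, 35 to 37, 40 to 42, 11 to 22, 0 to 4 and 1 to 24. The Nppa split as a term gave a median of -0.56 in IR against Ctrl and counts of 24 for Ab_IR against Ctrl and 25 for L_IR against Ctrl. A single fit of 12 libraries gave 8 members in Ab_IR against L_IR, 8 for Ab_IR against Ctrl and 18 for L_IR against Ctrl, and no filter gave 10 in Ab_IR against L_IR and 6 in L_IR against Ctrl. The pseudocount of 0.1 moved the medians to 0.89 in Ab_IR against IR and 0.85 in L_IR against IR, the mean of at least 5 FPKM to 0.51 and 0.57, quantile normalization to 0.66 and 0.60, and scaling without immunoglobulin genes gave 0.64 in Ab_IR against IR. The mean of at least 5 FPKM turned the median to 0.0255 in Ab_IR against L_IR and gave 5 members in L_IR against Ctrl. Scaling without immunoglobulin genes gave medians of -0.1657 in Ab_IR against L_IR, -0.0111 (turned) for Ab_IR against Ctrl and 0.1555 for L_IR against Ctrl. The cause of these changes was not tested.

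Replicate numbers recur in the groups, and correlations of same-numbered deviations ran from -0.2682 to 0.2238 over 18 pairs, with 4 over 0.1. Pairs of unlike number reached 0.2836 (Ab_IR 3 with L_IR 1). Deviations within a group of 3 sum to 0, so these values cannot settle whether libraries of 1 number were paired. With the replicate block, 27 members passed in IR against Ctrl, 36 in Ab_IR against IR, 40 in L_IR against IR, 15 in Ab_IR against L_IR, 0 for Ab_IR against Ctrl and 4 for L_IR against Ctrl (1 lower, 3 higher).

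Over all named members and alternatives, 3255 values kept direction and side of the threshold, 381 lost the threshold, 21 gained it and 39 changed sign. In IR against Ctrl quantile normalization turned Ddx58 to 0.0504 and Herc6 to 0.0740, and leaving out each library gave -0.6046 to 0.0006 for Ifit1 and -0.5614 to 0.3909 for Ifit3 (0.25 without IR 1). In Ab_IR against IR the Nppa split gave Zbp1 0.0512, Herc6 0.0558, Trim25 -0.0205 and Ly6e 0.2105, quantile normalization gave Ifitm2 -0.0014, median ratio scaling gave Ifitm2 -0.0146, and scaling without immunoglobulin genes gave Ifitm2 -0.1294 and Trim30a -0.0950. There, leaving out each library gave -0.0816 to 0.0190 for Ddx58, -0.0847 to 0.0513 for Zbp1, -0.0883 to 0.0120 for Herc6, -0.1138 to 0.1050 for Ifitm2 (-0.0010 without IR 2), -0.0343 to 0.0322 for Ly6e (0.0135 without IR 1) and -0.0306 to 0.1072 for Trim30a. In L_IR against IR quantile normalization gave Ddx58 -0.0669 and Herc6 -0.1131, the Nppa split gave Ddx58 -0.0837, Dtx3l -0.2253, Oas3 -0.0856 and Ifitm2 0.2682, and median ratio scaling gave Trim30a -0.0108. Among the values that turned, those of Trim25 in Ab_IR and of Dtx3l, Oas3 and Ifitm2 in L_IR had passed against IR.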
